A study of Mus musculus with 2 samples.

Results

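Genes that build ribosomes were described in mouse regulatory T cells that carried or lacked Hopx, a small homeodomain-only cofactor that does not itself bind DNA. The set holds 56 genes named for RNA polymerase I and for the assembly of the ribosomal subunits, and every probe set whose platform gene symbol matched one of them was taken. This gave 107 probe sets for 55 genes, out of 34945 probe sets with a single symbol for 18193 genes. No probe set carried the symbol Npm3, which enters only the promoter windows described further on. The cells had been induced in vivo through dendritic cells after immunization and were sorted on CD25 together with Foxp3. There were 2 Affymetrix arrays of total RNA labelled with biotin, 1 of Hopx-sufficient cells and 1 of Hopx-/- (Hopx-deficient) cells. Strain, age, the number of animals behind each array, the nature of the Hopx allele and whether the sufficient cells were wild type are not given in the sources used here.

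Ribosomes are made in the nucleolus, where RNA polymerase I transcribes a long precursor of the ribosomal RNAs. Small nucleolar ribonucleoproteins (snoRNPs) then guide methylation and pseudouridylation of that precursor, and large sets of assembly factors fold it, cut it and join it to ribosomal proteins to give the small and the large subunit. T cells that leave quiescence to grow and divide increase this pathway steeply, and the transcription factor MYC is a well-known activator of its genes.

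Every measured gene of the set was lower in Hopx-deficient cells. The genes had been chosen with earlier results of these data known. Each value is a log2 difference (Hopx-deficient minus Hopx-sufficient) averaged over the probe sets of a gene after centring on the median of all probe sets with 1 symbol. The 55 genes ran from -0.97 (Rrp12) to -0.07 (Heatr1), with a median of -0.43, a 1.35-fold lower signal, against a median of 0.00 over all 18193 genes. Of all genes, 49.9% lay below 0, against 55 of 55 here. Lower by at least 20% (a log2 difference of -0.32 or below) were 37 of the 55 genes, against 6.93% of all genes. A threshold of 1.5-fold was passed by 11, against 1.31% of all genes. This count was 20 (2.48% of all genes) with the probe set farthest from 0 in place of the mean over a gene's probe sets. Which base the deposited logs have is unknown here, so every fold and log2 value rests on an assumed base of 2. Had they been natural logs, 30 genes would pass 1.5-fold (4.06% of all genes), the median would be -0.62 and Rrp12 would stand at -1.39. In base 2 none was 2-fold lower (0.143% of all genes were), and none was higher by at least 25% (4.09% of all genes were). In the lowest 5% of all genes, those at or below -0.37, lay 33 of the 55, and in the lowest 25%, at or below -0.12, lay 51.

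The differences were thus small for each gene and of one direction across the set. With 1 array per genotype they have no replicate error, no test could be made, and how the genes vary together between animals is unknown, so the count of 55 does not stand for 55 independent observations. In bulk RNA of sorted cells a lower share of cells that express a gene and less of its RNA per cell cannot be told apart. In the deposited table each probe set had been centred on the average of both arrays, so each value on one array mirrors that on the other and no signal level is known. The array of Hopx-sufficient cells held the higher value in all 55 genes; for Rrp12, for example, the deposited values were 0.48 in Hopx-sufficient and -0.48 in Hopx-deficient cells.

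**Figure D1:**
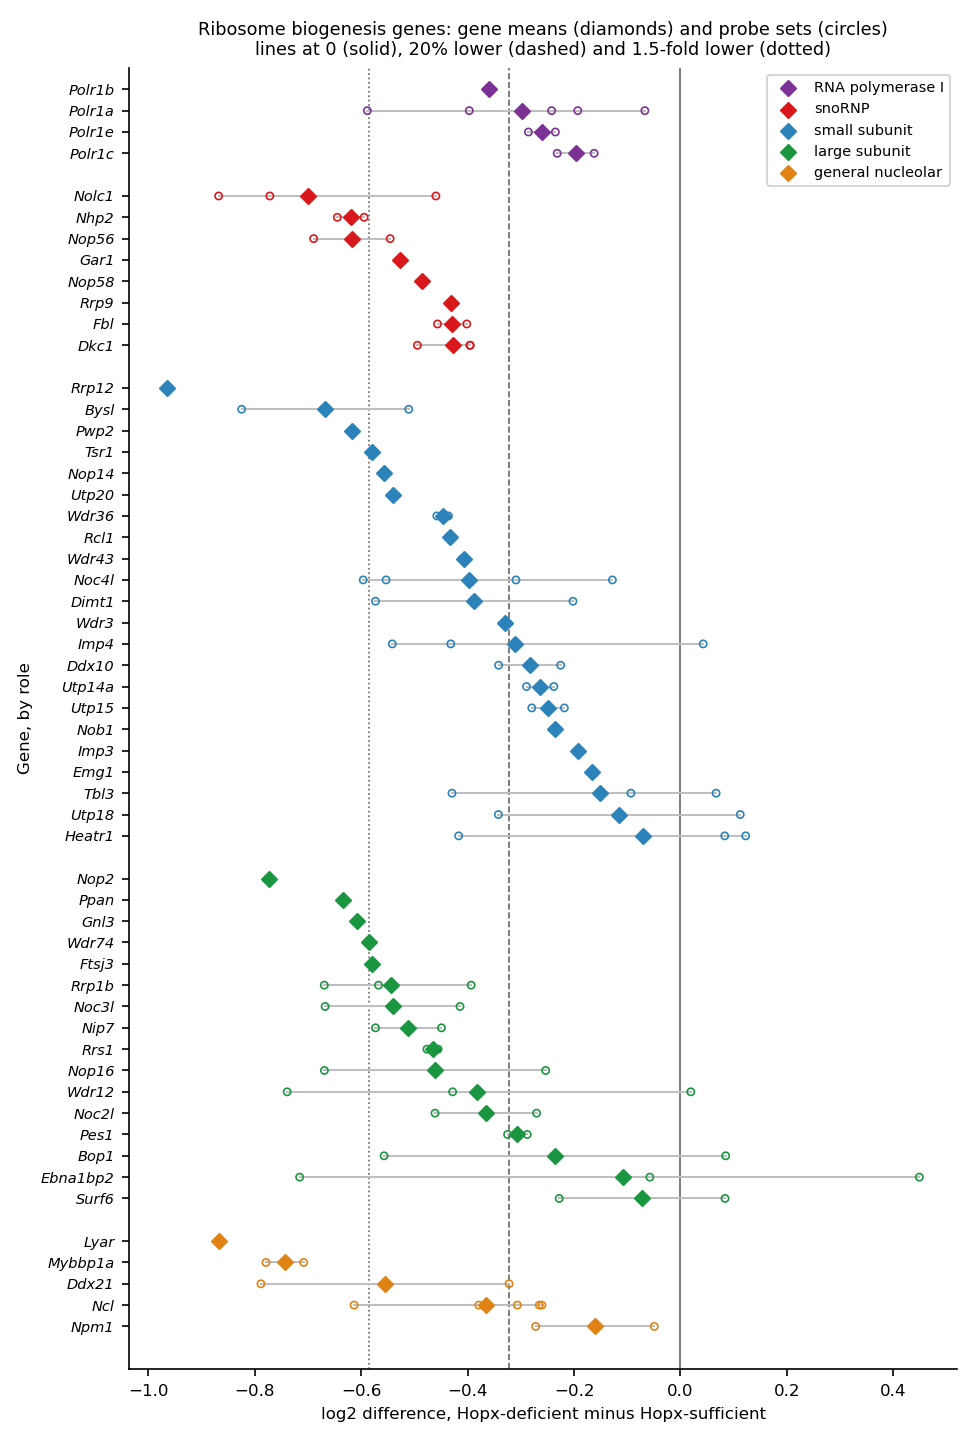
Log2 difference (x axis, Hopx-deficient minus Hopx-sufficient) of the 55 genes (y axis, grouped by role); diamonds are gene means and open circles single probe sets. All diamonds lie left of 0, and the 8 snoRNP genes all lie left of the dashed line for 20% lower.

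The genes were split by role into RNA polymerase I (4 genes), snoRNPs (8), small-subunit factors (22), large-subunit factors (16) and general nucleolar proteins (5 measured). The medians were -0.28, -0.51, -0.36, -0.49 and -0.56 in that order. The groups overlapped widely, and with 1 array per genotype the differences between them were not tested. In each role, the promoter of the lowest gene for which RefSeq gave a window is shown, since these genes were lower together. Each sequence spans 170 bases before to 30 after the annotated start, in the direction of transcription. Capitals mark matches, on either strand, to 4 motifs described further on. They come from the GRCm38.p6 build: Polr1b chr2:129100826-129101025 (plus strand), Nolc1 chr19:46075677-46075876 (plus), Bysl chr17:47611463-47611662 (minus), Nop2 chr6:125131713-125131912 (plus) and Lyar chr5:38220312-38220511 (plus).
Polr1b: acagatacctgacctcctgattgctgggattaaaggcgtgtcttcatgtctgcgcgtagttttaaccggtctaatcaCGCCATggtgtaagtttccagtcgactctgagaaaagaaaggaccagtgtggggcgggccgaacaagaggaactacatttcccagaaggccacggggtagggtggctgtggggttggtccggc
Nolc1: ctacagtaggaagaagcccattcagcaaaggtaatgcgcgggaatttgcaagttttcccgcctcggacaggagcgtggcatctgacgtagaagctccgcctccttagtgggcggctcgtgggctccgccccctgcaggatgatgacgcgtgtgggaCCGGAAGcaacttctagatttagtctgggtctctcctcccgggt
Bysl: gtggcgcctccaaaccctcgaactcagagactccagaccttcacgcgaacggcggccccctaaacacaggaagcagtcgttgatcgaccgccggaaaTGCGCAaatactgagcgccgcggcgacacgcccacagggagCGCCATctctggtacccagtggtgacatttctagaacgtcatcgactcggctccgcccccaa
Nop2: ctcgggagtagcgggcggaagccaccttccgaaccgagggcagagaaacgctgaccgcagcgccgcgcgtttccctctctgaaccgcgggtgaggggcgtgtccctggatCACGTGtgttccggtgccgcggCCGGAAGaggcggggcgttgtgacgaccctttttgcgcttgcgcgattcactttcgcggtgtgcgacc
Lyar: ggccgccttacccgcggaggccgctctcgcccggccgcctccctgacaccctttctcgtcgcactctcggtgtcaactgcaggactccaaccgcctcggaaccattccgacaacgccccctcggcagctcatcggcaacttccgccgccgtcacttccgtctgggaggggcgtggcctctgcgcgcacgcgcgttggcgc

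The snoRNP genes were lower as a block. All 8 were lower by at least 20% (6.93% of all genes were), and they spanned only -0.70 to -0.43. Nolc1, which encodes a nucleolar phosphoprotein that accompanies snoRNPs, was 1.62-fold lower; its deposited values averaged 0.35 in Hopx-sufficient and -0.35 in Hopx-deficient cells, and its 3 probe sets gave differences of -0.87, -0.77 and -0.46. Among the proteins of box C/D particles, which carry out ribose methylation, the scaffold gene Nop56 differed by -0.62 (probe sets at -0.69 and -0.55) and its partner Nop58 by -0.49 (1 probe set). Fbl, the methyltransferase fibrillarin, differed by -0.43 (probe sets at -0.46 and -0.40), and Rrp9, a protein specific to the U3 particle, by -0.43. Of the proteins of box H/ACA particles, which make pseudouridine, Nhp2 was 1.54-fold lower (probe sets at -0.64 and -0.59), Gar1 differed by -0.53, and Dkc1, the pseudouridine synthase dyskerin, by -0.43 with probe sets at -0.49, -0.40 and -0.40. The highest of their 15 probe sets lay at -0.40.

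RNA polymerase I itself showed the smallest median of the roles, -0.28. Of its 4 subunit genes only Polr1b, encoding one of the largest, catalytic subunits, was lower by over 20% (-0.36, 1 probe set). Polr1a, which encodes the other catalytic subunit, differed by -0.30, but its 5 probe sets ranged from -0.59 to -0.07. Polr1e differed by -0.26 and Polr1c, a subunit shared with RNA polymerase III, by -0.20. Further subunits and initiation factors, taken from a separate list of 11 genes, went both ways. Of these, 8 were lower (49.9% of all genes were), 3 were not, and the median was -0.14. Polr1g (Cd3eap on the platform) was 1.60-fold lower and Rrn3, the factor that makes the polymerase competent to initiate, differed by -0.34. Ubtf, which binds the ribosomal gene promoter, stood at -0.07, and Taf1b, of the promoter selectivity factor, at 0.47, each of these 4 being measured by 1 probe set except Ubtf with 2.

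Small-subunit factors held the gene with the lowest value, Rrp12, a HEAT-repeat protein of pre-ribosome maturation and export. It was 1.95-fold lower and ranked at position 36 from the lowest of all 18193 genes, by a single probe set. Bysl, encoding bystin, followed with 1.59-fold (0.33 in Hopx-sufficient and -0.33 in Hopx-deficient cells, probe sets at -0.82 and -0.51). Pwp2 was 1.53-fold lower, with deposited values of 0.31 and -0.31 in the same order. Tsr1, a GTPase-like factor of late maturation, differed by -0.58 in both of its probe sets, and Nop14 (-0.56) and Utp20 (-0.54) had 1 probe set each. In all, 12 of the 22 genes were lower by at least 20%, and 3 of these by 1.5-fold or more. Over all genes, the shares were 6.93% and 1.31%.

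Subcomplexes of the small-subunit processome were not uniform. In the UTP-B module, Pwp2 (-0.62), Wdr36 (-0.45) and Wdr3 (-0.33) were lower by over 20%. Tbl3 differed by -0.15 (probe sets at -0.43, -0.09 and 0.07) and Utp18 by -0.11 (probe sets at -0.34 and 0.11). In the UTP-A module, Wdr43 differed by -0.41 (probe sets at -0.41 and -0.40), Utp15 by -0.25 and Heatr1 by -0.07 (probe sets at -0.42, 0.08 and 0.12). Of the U3-associated proteins, Imp4 differed by -0.31 (probe sets at -0.54, -0.43 and 0.04) and Imp3 by -0.19. Noc4l, which forms a pair with Nop14, differed by -0.40 over 4 probe sets from -0.60 to -0.13. Rcl1, needed for an early cut of the precursor, stood at -0.43, the helicase Ddx10 at -0.28 and Utp14a at -0.26. Of the enzymes that act on the small-subunit RNA, the base dimethylase Dimt1 stood at -0.39 (probe sets at -0.57 and -0.20), the endonuclease Nob1 at -0.24 and the methyltransferase Emg1 at -0.17.

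Large-subunit factors were lower by at least 20% in 12 of 16 cases, 3 of them by 1.5-fold or more (6.93% and 1.31% of all genes). Nop2, a cytosine methyltransferase of the large-subunit RNA, was 1.71-fold lower (0.38 in Hopx-sufficient and -0.38 in Hopx-deficient cells). Ppan was 1.55-fold lower and Gnl3, the nucleolar GTPase nucleostemin, 1.52-fold. Wdr74 (-0.58) and the methyltransferase Ftsj3 (-0.58) fell just short of 1.5-fold. These 5 genes were measured by 1 probe set each. Of those with several, Rrp1b differed by -0.54 (probe sets at -0.67, -0.57 and -0.39), Noc3l by -0.54, Nip7 by -0.51, Nop16 by -0.46 (probe sets at -0.67 and -0.25) and Noc2l by -0.37. Rrs1, which helps bring the 5S particle into the subunit, differed by -0.47 with probe sets at -0.48 and -0.46.

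The PeBoW complex, a trimer needed for large-subunit maturation, gave gene means nearer to 0 than the median of the large-subunit factors, and probe sets of Wdr12 and Bop1 disagreed. Pes1 differed by -0.31 (probe sets at -0.32 and -0.29). Wdr12 differed by -0.38, from probe sets at -0.74, -0.43 and 0.02, and Bop1 by -0.24, from -0.56 and 0.09. The largest disagreement was in Ebna1bp2, whose 3 probe sets gave -0.72, -0.06 and 0.45 and a mean of -0.11. Surf6, at -0.07, had probe sets at -0.23 and 0.08. The direction of the gene mean rests on 1 or 2 of the probe sets in Wdr12, Bop1, Ebna1bp2 and Surf6.

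General nucleolar proteins ranged from near the bottom of all genes to a small difference. Lyar, a growth-linked nucleolar protein, was 1.82-fold lower (0.43 in Hopx-sufficient and -0.43 in Hopx-deficient cells, 1 probe set). Mybbp1a was 1.67-fold lower (0.37 and -0.37 in the same order, probe sets at -0.78 and -0.71). The RNA helicase Ddx21 differed by -0.56 (probe sets at -0.79 and -0.32). Ncl, the abundant RNA-binding protein nucleolin, differed by -0.36, with all 5 probe sets between -0.61 and -0.26. Npm1, the histone and ribosome chaperone nucleophosmin, differed by -0.16 (probe sets at -0.27 and -0.05).

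Probe sets of the same gene showed the spread within a gene. Of the 36 genes with 2 or more probe sets, 28 (77.8%) had all of them below 0. Of the 9010 such genes among all genes, 24.2% did, and 47.6% had all probe sets on one side of 0. Since every measured gene of the set had a mean below 0, the 47.6% is the closer comparison. That mean comes from the same probe sets and the genes were chosen with results known, so these shares are no independent check. The standard deviation between probe sets of a gene was 0.23 in the set and 0.18 over all genes, so the smaller differences of single genes lie within the spread between probe sets. This spread lies within 1 pair of arrays and gives no error between animals. Whether it is technical or comes from different transcripts of a gene was not tested. The other 19 genes had 1 probe set. Of the 107 probe sets, 98 were below 0. The 9 that were not belonged to Bop1, Ebna1bp2, Surf6, Wdr12, Heatr1 (2 probe sets), Imp4, Tbl3 and Utp18.

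The numerical steps of the deposited values carry a coarse hint of the signal: if they were held in single precision, the finest steps occur only where the value before centring was below 8 on at least 1 array. Such steps were found in 14 of the 107 probe sets (13.1%) against 38.8% of all probe sets with 1 symbol. Their median difference was -0.25, with 4 of 14 not below 0, whereas the other 93 had a median of -0.43, with 5 not below 0. Among all probe sets with 1 symbol, 47.1% of those with the finest steps and 51.1% of those with coarser steps were below 0. The single probe set of Rrp12 and both of Noc3l were among the 14. With such probe sets left out, 53 genes could be measured and all 53 were lower.

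**Figure D2:**
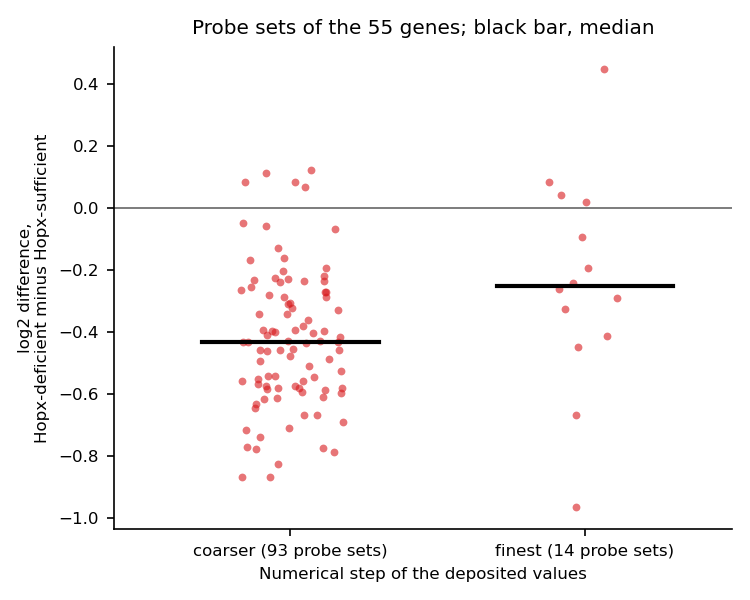
Log2 difference (y axis, Hopx-deficient minus Hopx-sufficient) of the 107 probe sets of the 55 genes, by the step of their deposited values (x axis); each point is a probe set and black bars are medians. The 93 probe sets with coarser steps have a median of -0.43 and the 14 with the finest steps one of -0.25.

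A wider list of the pathway that did not share genes with the set lay in the same direction with smaller values. Both the set and this list were chosen with earlier results of these data known. The list is therefore no independent check, and the gap between them was not tested. Of 89 other measured ribosome biogenesis genes, 82 had values below 0, 25 passed 20% lower and 7 passed 1.5-fold, with a median of -0.23. Over all genes, the shares were 49.9%, 6.93% and 1.31% in that order. Other snoRNP proteins and assembly factors (11 genes, all lower) had a median of -0.39, with Ruvbl2 at -0.67, Znhit3 at -0.67 and Tgs1, the cap hypermethylase, at -0.0012. Other small-subunit factors (29 of 33 lower, median -0.23) ran from Pno1 (-0.83), Utp4 (-0.73) and Dhx37 (-0.60) to Ddx52 (0.06). Other large-subunit factors (34 of 34 lower, median -0.22) ran from Rrp15 (-0.79) to Rpf1 (-0.0043). All 13 genes of the RNA exosome, which trims the precursor and degrades its spacers, were lower (median -0.21), with the nuclease gene Dis3 at -0.76, Exosc6 at -0.60 and Exosc8 at -0.03.

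Host genes whose introns release snoRNAs were also mostly lower, in 9 of 10 cases (49.9% of all genes were lower), with a median of -0.19. Snhg3 was 1.79-fold lower and Snhg8, at 0.08, was the highest. Genes of RNA polymerase II that it does not share had a median of -0.24 (7 of 7 lower, Polr2j at -0.40 to Polr2b at -0.14). This lay between the median of the 4 polymerase I genes of the set (-0.28) and that of the 11 further ones (-0.14). Those of RNA polymerase III had a median of -0.08 (7 of 9 lower, Polr3g at -0.43 to Polr3gl at 0.19). Of 3 measured subunits common to the polymerases Polr2h differed by -0.52, Polr2f by -0.25 and Polr2e by 0.0019.

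The proteins of the ribosome itself gave other values than the factors that assemble it. Cytosolic ribosomal protein genes had a median of -0.01 (43 genes, 26 lower, 3 by at least 20%, Rpl14 at -0.44 to Rps16 at 0.16), close to that of all genes. Mitochondrial ribosomal protein genes lay between, with a median of -0.23, 69 of 76 lower and 21 by at least 20% (Mrps28 at -0.76, Mrps18b at -0.61, Mrpl33 at 0.13). Of all genes, 49.9% were lower and 6.93% were lower by at least 20%. Since no list has a replicate error, the medians of these lists are set side by side as descriptions of the 2 arrays.

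**Figure D3:**
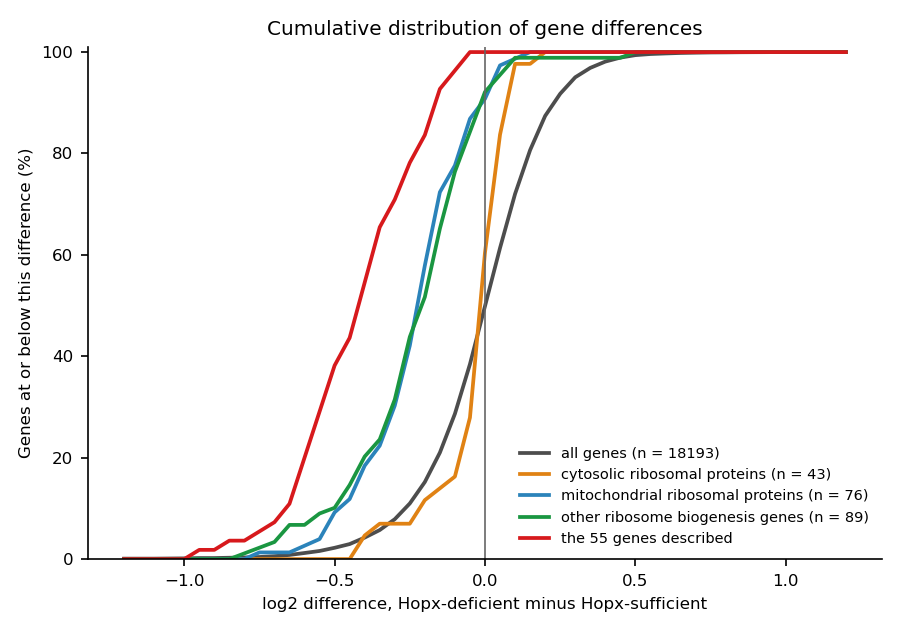
Percent of genes (y axis) at or below a given log2 difference (x axis, Hopx-deficient minus Hopx-sufficient) for 5 gene sets. The curve of the 55 genes reaches 100% left of 0, the curves of other ribosome biogenesis genes and mitochondrial ribosomal proteins lie between, and cytosolic ribosomal proteins rise steeply around 0.

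**Figure D4:**
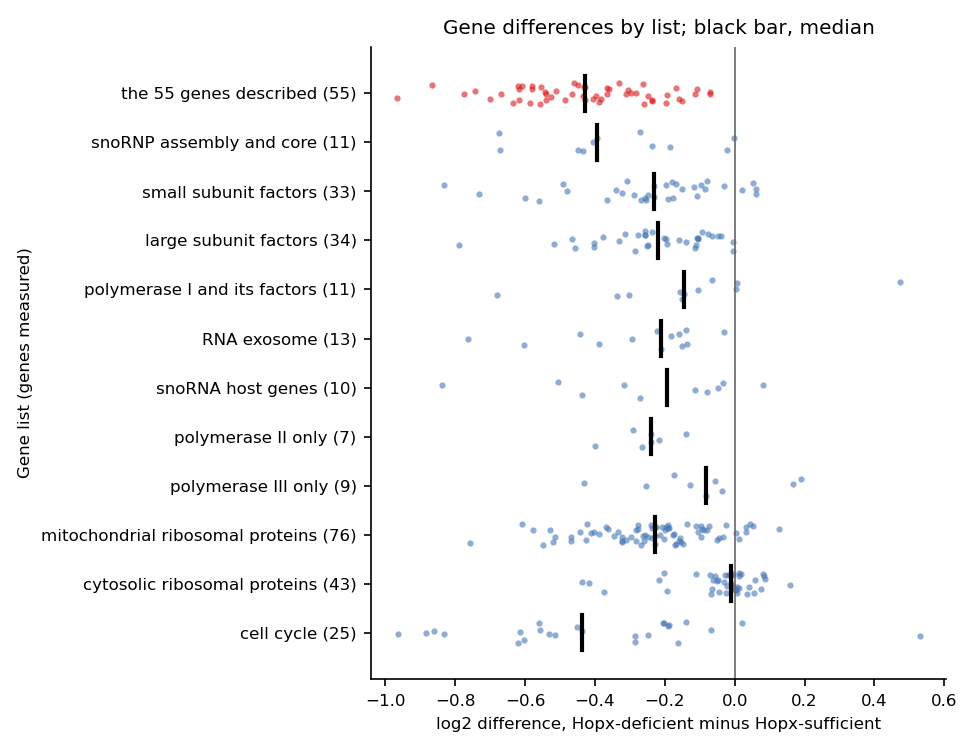
Log2 difference (x axis, Hopx-deficient minus Hopx-sufficient) of single genes (points) in the set and in 11 further lists (y axis, number of genes measured in brackets), with medians as black bars. The set (-0.43) and the cell cycle list (-0.44) have the lowest medians, and cytosolic ribosomal proteins (-0.01) the one nearest to 0.

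Other gene lists went both ways (of all genes, 49.9% were lower and 1.31% were lower by 1.5-fold or more). Cell cycle genes had a median of -0.44, with 23 of 25 lower, 7 of these by 1.5-fold or more (Cdc6 at -0.97, Gins2 at -0.88, Gins1 at -0.86; Ccnb2, at 0.53, was the highest); their part in the result was not tested. Of markers of other cells, all 7 B cell genes were lower (median -0.21, Cd79a at -0.41 to Cd79b at -0.07), CD8 T and NK cell genes had a median of 0.01 (3 of 7 lower), DC and macrophage genes one of 0.24 (6 of 13 lower, Lyz2 at -0.38 to Cd14 at 0.50) and neutrophil and erythroid genes one of -0.02 (4 of 6 lower); their part was not tested either. T cell markers had a median of 0.22 (Cd4 at -0.01 to Cd28 at 0.33) and Treg markers one of 0.28 (Il2ra at -0.06 to Ikzf2 at 0.37, with Il2ra and Foxp3 encoding the sorted proteins), but without signal levels neither label can be checked by presence. Hopx itself was 35.6-fold lower.

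Technical controls ranged from small differences to some as large in size as the median of the set or larger. Hybridization spike-ins (18 probe sets) lay between -0.22 and 0.01, with a median of -0.12, on the same side of 0 as the set. The spike-ins measure hybridization alone and not the spread between samples, and their part in the result was not tested. Control transcripts have 3′ and 5′ probe sets, given here in that order. Their differences (Hopx-deficient minus Hopx-sufficient) were -0.24 and -0.15 for Gapdh and -0.0047 and -0.005 for Actb. For Pcx they were 0.05 and -0.14, and for Tfrc -0.29 and -0.82. The 3′ difference minus the 5′ difference bears on RNA integrity. It was -0.09 for Gapdh, 0.00 for Actb, 0.19 for Pcx and 0.53 for Tfrc. A value above 0 means a relatively stronger 3′ signal on the Hopx-deficient array. The part of these controls in the result was not tested. The 18S ribosomal RNA, a product of RNA polymerase I, was 0.34 to 0.45 higher on the Hopx-deficient array in its 3 control probe sets. This RNA has no poly-A tail, and the sources used here do not state how the target was primed, so the value does not measure ribosomal RNA synthesis.

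Promoter windows were compared because the genes were lower together. RefSeq windows of 300 bases, from 250 before to 50 after the start, were found for 49 of the 56 genes (53 windows, as some genes have several starts). Npm3, which has no measured difference, is among the 49. The E-box CACGTG, bound by MYC with MAX and by related factors, occurred in 8 of the 53 windows (15.1%), against 7.15% of all 32851 windows and 8.72% of the 18109 windows of genes on the arrays. It lies 60 bases before the start in the Nop2 sequence printed above, and was also found for Imp4, Mybbp1a, Pes1, Tsr1, Utp18, Utp20 and Wdr43. The 8 genes with an E-box had a median difference of -0.47 and the 40 measured genes with a window but none had -0.43. Myc, picked after its value was seen, differed by -0.09 (1 probe set).

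The other 3 motifs also occurred more often than in the windows of all genes. For the last of them, TGCGCA, the gap to the windows of genes on the arrays was small. The letters CCGGAAG, or CTTCCGG on the other strand, known from ETS factors, occurred in 21 of 53 windows (39.6%), against 8.86% of all windows and 13.0% of those of genes on the arrays; they lie near the start in the Nolc1 and Nop2 sequences. ATGGCG, or CGCCAT, the core of the YY1 motif and also the letters of a start codon followed by an alanine codon, occurred in 17 windows (32.1%, against 8.93% and 11.9%), among them those of Polr1b and Bysl. TGCGCA, from the NRF1 motif, occurred in 7 (13.2%, against 7.76% and 11.0%), with 1 match in the Bysl sequence. No match to any of the 4 lies in the Lyar sequence. No matches to different motifs overlapped. The windows of the set were slightly richer in G and C (median 59.3%, against 58.3% for genes on the arrays) and held more CpG pairs (median 23 against 16), which bears on how often motifs with CG occur. Genes with a match and those without had similar medians, which were -0.44 and -0.43 for the ETS letters, -0.43 and -0.43 for YY1 and -0.38 and -0.43 for NRF1. A match describes the letters of a window and does not show that a factor binds there.

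**Figure D5:**
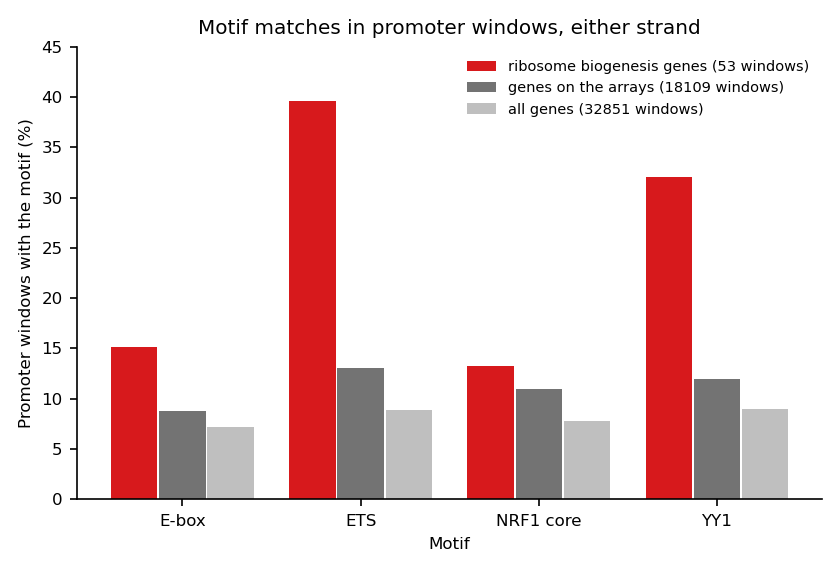
Percent of promoter windows (y axis, from 0) with a match to each of 4 motifs (x axis) for the ribosome biogenesis genes, the genes on the arrays and all genes. The ETS letters (39.6%) and the YY1 core (32.1%) stand highest among the 53 windows of the set.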

How the data were processed

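The authors deposited log2-type values of 45101 probe sets on 2 arrays; each probe set had been centred on the mean of both, as tested on the table (largest row sum 1e-06). Summarisation, normalization between arrays and the log base are not given in the sources used here; base 2 was assumed. Samples were grouped by title. The platform annotation of 2016 gave the gene of each probe set; 932 with several symbols, 9160 with none and 64 controls were left out, and no probe set with several symbols named a gene of the set. Differences were taken as Hopx-deficient minus Hopx-sufficient, centred on their median (0.0075) and averaged over the probe sets of a gene. With 1 array per genotype there is no test and no p-value; thresholds of 20% lower, 1.5-fold and 2-fold are rules of size, and the number of arrays limits the precision. The genes, the roles and the lists were chosen with earlier results of these data known. All genes of the set may be named; in other lists the lowest and the highest gene and those at least 1.5-fold apart, up to 6 a list; Myc, Hopx and some further genes were chosen after their values were seen. The E-box was the planned motif, and the other 3 were added after gene values were seen. Protein features were planned, but protein sequences were not analysed here. Alternatives were no centring, the median or the farthest probe set of a gene, leaving out probe sets by suffix or finest step, natural logs, updated symbols and the 2-fold threshold. The script was tested on simulated data. The versions were numpy 2.4.6 and pandas 2.3.3 on Python 3.11.15.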

Additional observations from a re-analysis of the deposited data

How the results depend on the processing

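The direction of the set held under the alternatives that could change it. Natural logs, updated symbols and the 2-fold threshold could not change a direction. Leaving out the centring moved each value by only 0.0075. With the median over probe sets 54 of 55 genes were lower, Heatr1 being the exception; without probe sets of suffix _s_at, _x_at or _a_at 51 of 51 measured genes were lower. Taking the probe set farthest from 0 gave medians of -0.54 for the set, -0.43 for small-subunit, -0.60 for large-subunit and -0.78 for general nucleolar genes, and 20 genes at least 1.5-fold lower (2.48% of all genes). Had the values been natural logs, the medians would be -0.62 for the set, -0.40 for polymerase I, -0.73 for snoRNPs, -0.52 for small-subunit, -0.70 for large-subunit and -0.80 for general nucleolar genes, with 30 genes at least 1.5-fold lower (4.06% of all genes). At 2-fold the count was 0. No other median moved by over 0.05, and no other count by over 1.5 times. Updating symbols by gene ID changed no symbol, so that alternative repeated the main run and checks nothing. Adding probe sets with several symbols could not be run, as none named a gene of the set. No paired analysis was possible because a genotype is a single array, which also means that none could be omitted.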
